A study of Mus musculus with 12 samples.

Results

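Transcript levels of 10 genes that mark dendritic cells or set their lineage were followed through 4 sorted populations of skin macrophages. The genes were chosen by symbol with earlier results of these data known. Counts among them, set beside the shares of all genes, are thus descriptive only. Of the 10 genes, 6 encode surface molecules (Itgax, Cd207, Flt3, Xcr1, Cd209a and Cd24a) and 4 encode lineage transcription factors (Zbtb46, Irf4, Irf8 and Batf3). Each matched 1 probe set of the array, so that all 10 were among the 19938 genes tested. Skin cells came from wild-type C57BL/6 (B6) mice kept specific pathogen free and left untreated, and no age or sex is given in the sources used here. The populations were melanophages and macrophages, each split into cells without and with surface MHC-II, with 3 arrays for each of the 4 groups and 12 in all. All cells were gated as CD11b-positive, CD64-positive, CD24-negative, CCR2-negative and Ly6C-negative. Melanophages, which hold ingested melanin, were taken at high side scatter. For macrophages the sample titles and the phenotype field disagree on side scatter. Nothing in the labels ties the arrays of a group to different mice. Codes in the sample titles run in 3 consecutive sets of 4, each with 1 array of every group, and the labels do not say what a set shares. The p-values thus rest on the spread among these 12 samples alone, part or all of which may be technical.

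Dendritic cells take up antigen in tissues, carry it to lymph nodes and present it to T cells on MHC class II. Those of the skin are the Langerhans cells of the epidermis, which make langerin (Cd207), and the conventional dendritic cells of the dermis, called cDC1 and cDC2. Conventional dendritic cells depend on the receptor FLT3 and carry the transcription factor ZBTB46, which macrophages generally lack. cDC1 depend on IRF8 and BATF3 and display the chemokine receptor XCR1, whereas many functions of cDC2 depend on IRF4. Macrophages share some of these molecules, CD11c (Itgax) among them, and the shared ones do not mark dendritic cells alone.

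Values are log2 expression from the array and are compared between samples for 1 gene at a time, never between genes. Array medians over all probe sets lay between 2.975 and 3.078, and a gene near them may not be measured above background. Arrays correlated with the others of their group at a mean of 0.972 to 0.988, lowest for MHC-II-negative macrophages replicate 1. As a check of the MHC-II labels, H2-Eb1, H2-Aa and H2-Ab1 were higher in MHC-II-positive cells by 3.99 ± 0.18, 3.32 ± 0.24 and 2.81 ± 0.22, averaged over cell kind. In MHC-II-negative macrophages these genes still had means of 6.41, 8.57 and 9.25. As a check that the cells were macrophages, which cannot tell the groups apart, the mean log2 level of 22 core macrophage genes was 8.78 to 9.12 over the arrays. With limma 1 of the 22 was lower in melanophages, averaged over MHC-II class, at an adjusted p under 0.05, as were 0.0652% of all genes. Group means were 9.18 to 9.40 for Adgre1, 9.35 to 9.83 for the M-CSF receptor gene Csf1r, 5.36 to 5.73 for the factor Maf and 4.23 to 4.50 for the receptor Mertk. Cx3cr1, the fractalkine receptor gene, had means of 4.26 in both melanophage groups and of 5.54 and 6.06 in the macrophages. Ccr2, whose protein was gated as absent, was transcribed in the MHC-II-positive groups. Its group means were 6.75 ± 0.39 in MHC-II-positive melanophages and 7.11 ± 0.53 in MHC-II-positive macrophages, against 3.40 ± 0.31 and 3.99 ± 0.27 in the MHC-II-negative populations (SD, n = 3).

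Itgax (probe set 10557895) encodes the integrin chain CD11c, which pairs with CD18 to form a receptor for complement fragments. Its log2 values were 3.42, 3.29 and 3.52 in MHC-II-negative melanophages and 3.51, 3.46 and 3.72 in MHC-II-negative macrophages. In MHC-II-positive melanophages they were 4.06, 3.83 and 4.20, and in MHC-II-positive macrophages 5.85, 5.20 and 5.35. MHC-II-positive macrophages thus stood above all other arrays, MHC-II-positive melanophages came next without overlapping either neighbour, and the MHC-II-negative populations overlapped each other.

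Cd207 (probe set 10545742) encodes langerin, the C-type lectin that forms Birbeck granules in Langerhans cells. Log2 values in MHC-II-positive macrophages were 5.46, 4.61 and 5.43. The other populations had 2.76, 2.71 and 2.95 (MHC-II-negative melanophages), 3.16, 3.39 and 2.95 (MHC-II-positive melanophages) and 2.93, 3.24 and 3.22 (MHC-II-negative macrophages). Only MHC-II-positive macrophages stood apart from the remaining arrays, which overlapped and lay near the array medians. Cd207 exceeded the median of its own array on 7 of 12 arrays. No detection call comes with the values used here, so Cd207 differences are given on the log2 scale without a fold.

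**Figure D1:**
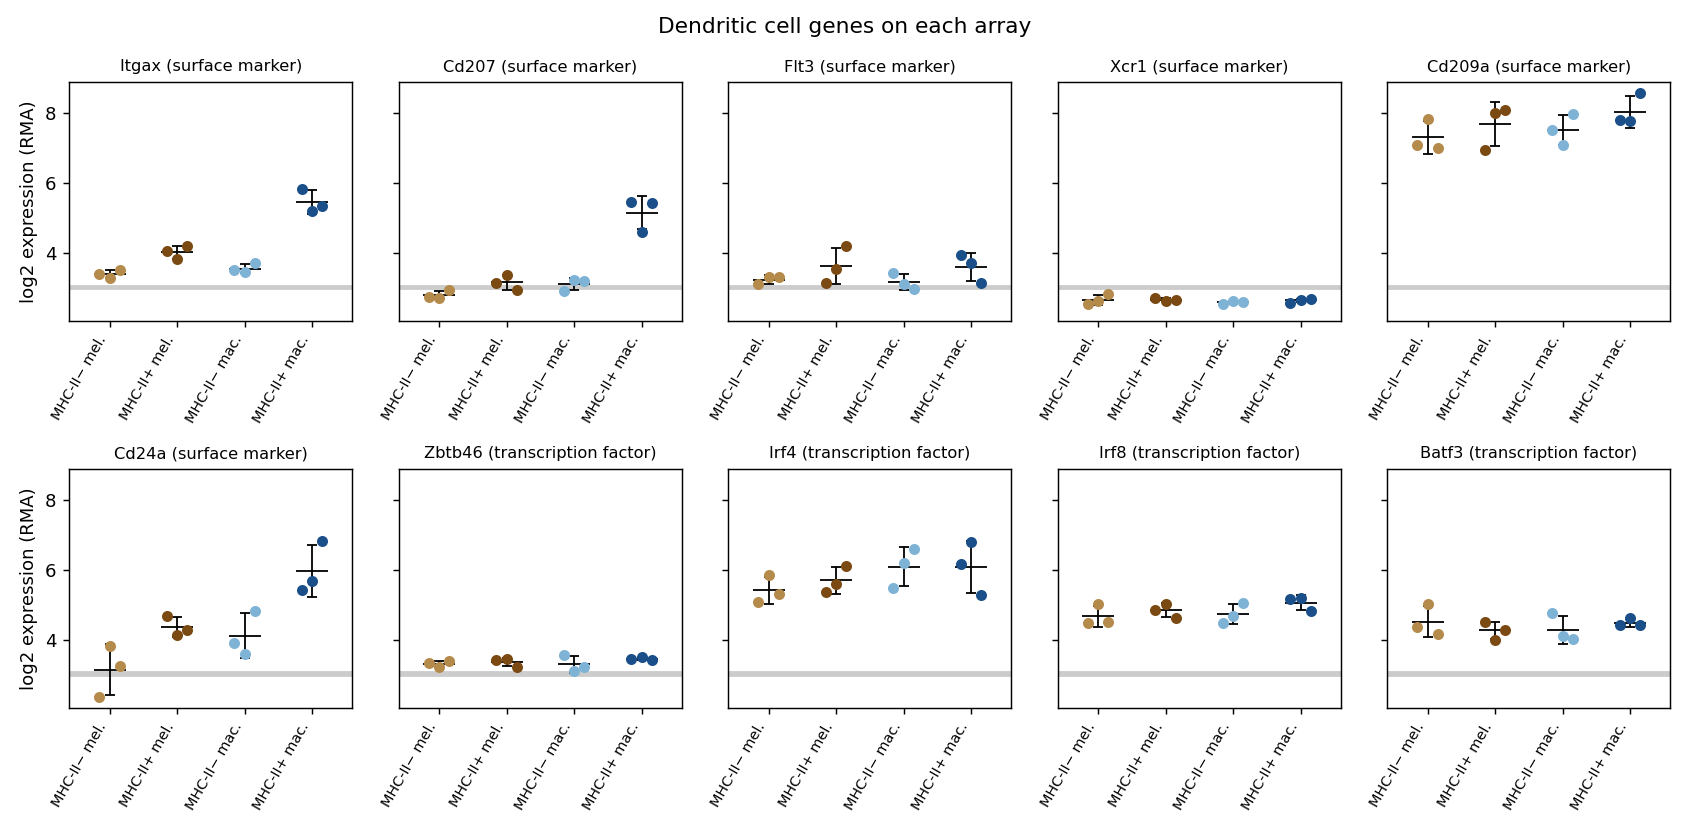
Log2 expression (RMA) of the 10 genes on each of the 12 arrays, in 4 groups of 3; points are arrays, bars the mean and SD, and the grey band the range of the array medians. Itgax, Cd207 and Cd24a are highest in MHC-II-positive macrophages, while Xcr1 lies below the median of every array.

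In macrophages, MHC-II-positive cells had 3.75-fold more Itgax than MHC-II-negative cells, whose own level lay close above the array medians (log2 difference 1.91 ± 0.16 SE, 95% interval 1.55 to 2.26, limma adjusted p = 0.000602). Cd207 differed by 2.04 ± 0.21 (1.57 to 2.5, limma adjusted p = 0.00226), from a level at the array medians. These were the 2 genes of the set that rose in this comparison, where 0.311% of all genes did. In melanophages the corresponding differences were 0.62 ± 0.16 for Itgax (0.26 to 0.98, limma adjusted p = 0.334) and 0.36 ± 0.21 for Cd207 (-0.11 to 0.83, adjusted p = 0.939). With limma 0 of the 10 genes passed in melanophages, where 0.211% of all genes did, and 2 of them, Itgax and Cd24a, had an unadjusted p under 0.05, as did 5.70% of all genes. Averaged over cell kind, Itgax differed by 1.26 ± 0.11 (adjusted p = 0.000379) and Cd207 by 1.20 ± 0.15 (adjusted p = 0.00356), and both rose, among 0.632% of all genes that did. The averaged and macrophage calls of both genes held when each array was left out in turn (highest adjusted p = 0.0149). In a fit of the 6 macrophage arrays alone Itgax passed (adjusted p = 0.0281) and Cd207 did not (adjusted p = 0.0756).

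Between cell kinds, Itgax and Cd207 passed in the MHC-II-positive class and not in the MHC-II-negative class, though their interaction, given below, did not pass. MHC-II-positive melanophages had 2.71-fold less Itgax (-1.44 ± 0.16, interval -1.80 to -1.08, limma adjusted p = 0.0229) and less Cd207 (log2 difference -2.00 ± 0.21, -2.47 to -1.53, adjusted p = 0.0192) than MHC-II-positive macrophages. Of all genes 0.015% fell there, which is 3 of 19938, these 2 included. In the MHC-II-negative class the differences were -0.15 ± 0.16 for Itgax (-0.51 to 0.21) and -0.32 ± 0.21 for Cd207 (-0.79 to 0.14). With limma 0 of the 10 genes passed in that class and 0 had an unadjusted p under 0.05, against 0.00502% and 5.65% of all genes. Averaged over MHC-II class, Itgax differed by -0.80 ± 0.11 (adjusted p = 0.0404) and Cd207 by -1.16 ± 0.15 (adjusted p = 0.0262), and both fell, among 0.0652% of all genes that did.

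The interaction, which asks whether the gain with MHC-II differs between cell kinds, was -1.28 ± 0.23 for Itgax (interval -1.79 to -0.78) and -1.68 ± 0.30 for Cd207 (-2.34 to -1.01). Their unadjusted p-values, 0.000192 and 0.000194, ranked 3 and 4 among 19938 genes. Neither passed after adjustment with limma (adjusted p = 0.965 for each). No gene passed (0.0%), and 4.11% of all genes had an unadjusted p under 0.05. Without MHC-II-positive macrophages replicate 2, the array with the lowest Cd207 of its group, the interaction of Cd207 passed (adjusted p = 0.0248) and that of Itgax did not (adjusted p = 0.279). The comparisons above share groups, and their values for a gene are set side by side only.

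Calls between cell kinds depended on which arrays were in the fit. Averaged over MHC-II class, the call of Itgax ended without any 1 of the 6 melanophage arrays (adjusted p = 0.0729 to 0.106) or of the 3 MHC-II-negative macrophage arrays (0.0521 to 0.111). That of Cd207 ended without any MHC-II-negative melanophage array (0.0579 to 0.0757), MHC-II-positive melanophages replicate 1 (0.0631) or 3 (0.0729), or MHC-II-negative macrophages replicate 2 (0.0875) or 3 (0.0702). Within the MHC-II-positive class both calls ended without any 1 of the MHC-II-positive melanophage arrays (Itgax 0.0613 to 0.125, Cd207 0.0553 to 0.108). They ended as well without MHC-II-negative melanophages replicate 1 (0.0724 and 0.0629) or 3 (0.0610 and 0.0537) or MHC-II-negative macrophages replicate 1 (0.0571 and 0.0502) or 2 (0.0600 and 0.0594). Without MHC-II-positive macrophages replicate 1, Itgax passed (0.0366) and Cd207 did not (0.0623). Both calls of that class also ended when the values were quantile normalized again (0.0571 each) and in a fit of its 6 arrays alone (0.310 each). Over all fits the log2 difference there ranged from -1.57 to -1.25 for Itgax and from -2.28 to -1.85 for Cd207.

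**Figure D2:**
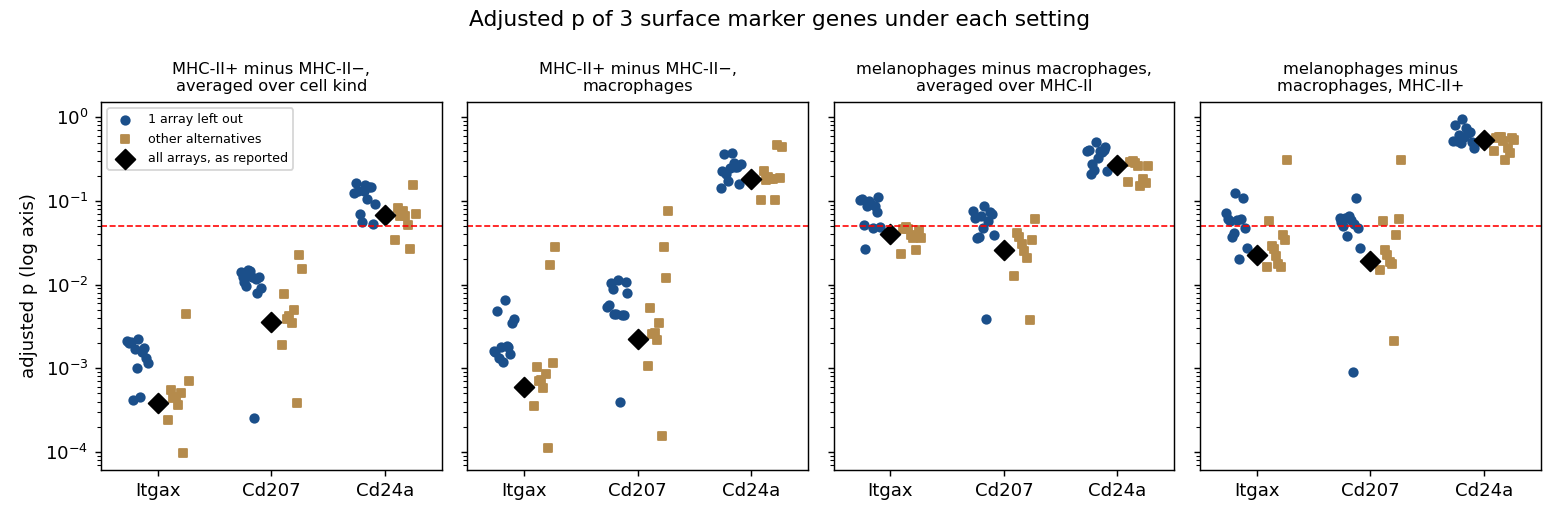
Adjusted p (log axis, limma) of Itgax, Cd207 and Cd24a in 4 comparisons; black diamonds are the fit of all arrays, circles the fits without 1 array, squares the other alternatives, and the dashed line 0.05. Points of Itgax and Cd207 lie below the line in the MHC-II comparisons, apart from 1 fit of Cd207 in macrophages at 0.0756, and on both sides of it between cell kinds.

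Cd24a (probe set 10362896) encodes CD24, a small glycoprotein found on Langerhans cells and cDC1, whose absence from the surface was part of the gate for all 4 populations. Its log2 values were 2.38, 3.83 and 3.26 in MHC-II-negative melanophages and 4.70, 4.14 and 4.30 in MHC-II-positive melanophages. In macrophages they were 3.92, 3.61 and 4.84 (MHC-II-negative) and 5.42, 5.68 and 6.83 (MHC-II-positive). MHC-II-positive macrophages again lay above all other arrays, and within each cell kind the MHC-II classes did not overlap. The difference between MHC-II classes averaged over cell kind was 1.54 ± 0.32 (interval 0.83 to 2.25) and did not pass (limma adjusted p = 0.0679). It passed when dim genes were left out (adjusted p = 0.0340) and with a robust variance prior that followed the expression level (adjusted p = 0.0268). Melanophages differed from macrophages by -1.28 ± 0.32 (-1.99 to -0.57, adjusted p = 0.266). Mouse Cd24a has near-identical intronless copies in the genome, and signal from them cannot be told apart here.

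Counted by arrays that do not overlap, 3 of the 10 genes (Itgax, Cd207 and Cd24a) were higher in macrophages with MHC-II than in those without, where 4.96% of all genes were. The same 3 were lower in MHC-II-positive melanophages than in MHC-II-positive macrophages, where 4.91% of all genes were. In melanophages Itgax and Cd24a were higher in the MHC-II-positive class (2 of 10, against 5.12% of all genes). In bulk samples a change in the share of cells that express a gene and a change in RNA per cell cannot be told apart.

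**Figure D3:**
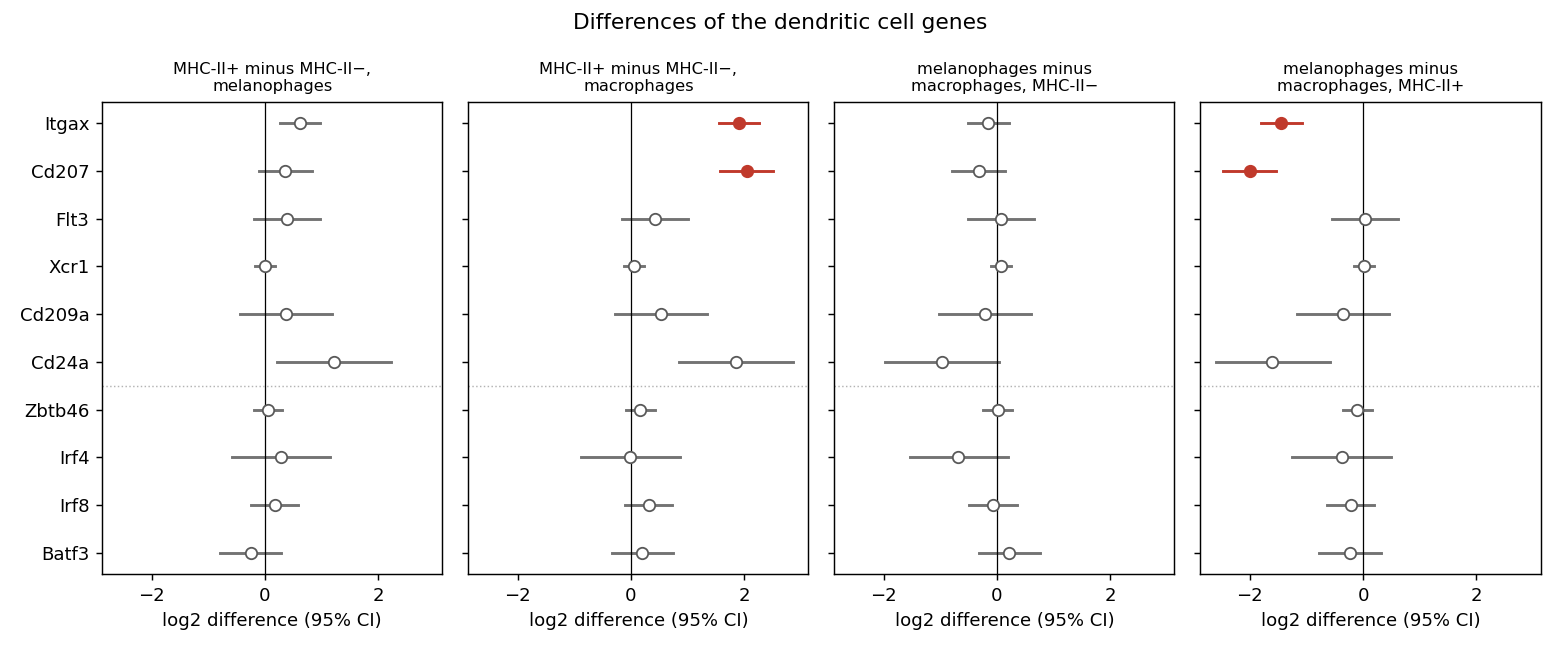
Log2 differences with 95% intervals from limma for the 10 genes in the 4 comparisons within a cell kind or MHC-II class; surface markers are above the dotted line and transcription factors below, and filled red points passed at an adjusted p under 0.05. Itgax and Cd207 passed in macrophages (1.91 and 2.04) and within the MHC-II-positive class (-1.44 and -2.00), and all other points are open.

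The remaining surface markers gave no call. Flt3, the receptor for the growth factor that sustains conventional dendritic cells, had group means of 3.25 ± 0.12 and 3.64 ± 0.53 in MHC-II-negative and MHC-II-positive melanophages and 3.18 ± 0.24 and 3.61 ± 0.41 in the macrophages (SD, n = 3). All groups overlapped, and the MHC-II difference averaged over cell kind was 0.41 ± 0.19 (-0.01 to 0.82, limma adjusted p = 0.550). Xcr1, the chemokine receptor of cDC1, lay between 2.54 and 2.83 on all 12 arrays, below every array median. Its averaged differences were 0.02 ± 0.06 between MHC-II classes (-0.10 to 0.15) and 0.04 ± 0.06 between cell kinds (-0.08 to 0.17). At that level a difference that stays within background could not be detected. Cd209a, a DC-SIGN-related lectin found on dermal macrophages and monocyte-derived dendritic cells as well as on cDC2, had values of 6.96 to 8.58. Its MHC-II difference was 0.45 ± 0.26 (-0.12 to 1.03, adjusted p = 0.655), with overlap between all neighbouring groups.

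With limma 0 of the 4 transcription factors passed in any of the 7 comparisons, and 0 had an unadjusted p under 0.05. Of all genes, 0.762% passed between MHC-II classes averaged over cell kind, 0.341% in macrophages, 0.12% between cell kinds averaged over MHC-II class and 0.015% between them in the MHC-II-positive class. Shares at an unadjusted p under 0.05 were 9.23%, 7.83%, 7.52% and 6.3% in the same order. Zbtb46 lay at 3.12 to 3.58 on the 12 arrays, close above the array medians, and differed between MHC-II classes by 0.11 ± 0.08 (-0.07 to 0.29). Irf8, which drives cDC1 and is also made by monocytes, had group means of 4.68 ± 0.29 and 4.85 ± 0.20 in MHC-II-negative and MHC-II-positive melanophages and 4.75 ± 0.29 and 5.06 ± 0.21 in the macrophages. Its MHC-II difference was 0.24 ± 0.13 (-0.05 to 0.54, limma adjusted p = 0.637). Batf3, the AP-1 family partner of IRF8 in cDC1, differed by -0.02 ± 0.17 (-0.40 to 0.36).

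Irf4, the factor tied to cDC2 and to alternative macrophage activation, was spread most widely among the 4. Arrays read 5.10, 5.86 and 5.31 in MHC-II-negative melanophages and 5.38, 5.61 and 6.13 in MHC-II-positive melanophages. Macrophages gave 5.50, 6.19 and 6.61 in the MHC-II-negative and 6.17, 6.80 and 5.30 in the MHC-II-positive class. All 4 groups overlapped. The difference between cell kinds was -0.53 ± 0.28 (-1.14 to 0.09, limma adjusted p = 0.719), and that between MHC-II classes 0.14 ± 0.28 (-0.48 to 0.75). The median log2 difference between MHC-II classes was 0.83 for the 6 surface markers and 0.12 for the 4 transcription factors, beside -0.024 for all genes. No surface marker lay near that median. Xcr1, Flt3 and Cd209a differed by 0.02, 0.41 and 0.45, and Cd207, Itgax and Cd24a by 1.20, 1.26 and 1.54.

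Proximal promoters are shown for Itgax and Cd207, the genes of the set called between MHC-II classes, and for Zbtb46, which shares a run of letters with Cd207. The windows run from 250 bases before to 50 bases after the annotated start (RefSeq, GRCm38.p6), written 5′ to 3′ on the strand of the gene, with matches to the IRF and BATF composite or, in Itgax, to the AP-1 motif in capitals. They lie at chr7:128129300-128129599 on the plus strand (Itgax), chr6:83677808-83678107 on the minus strand (Cd207) and chr2:181424339-181424638 on the minus strand (Zbtb46).
Itgax: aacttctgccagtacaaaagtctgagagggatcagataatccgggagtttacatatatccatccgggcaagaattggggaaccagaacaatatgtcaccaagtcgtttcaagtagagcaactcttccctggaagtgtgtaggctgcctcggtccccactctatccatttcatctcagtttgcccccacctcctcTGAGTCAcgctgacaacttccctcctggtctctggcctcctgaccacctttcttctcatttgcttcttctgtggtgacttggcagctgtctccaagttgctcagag
Cd207: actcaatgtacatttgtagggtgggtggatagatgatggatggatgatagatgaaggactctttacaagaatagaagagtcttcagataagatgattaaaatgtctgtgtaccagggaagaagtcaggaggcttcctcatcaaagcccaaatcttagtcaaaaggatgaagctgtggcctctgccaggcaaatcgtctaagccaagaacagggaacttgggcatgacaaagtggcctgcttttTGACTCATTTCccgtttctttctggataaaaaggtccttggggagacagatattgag
Zbtb46: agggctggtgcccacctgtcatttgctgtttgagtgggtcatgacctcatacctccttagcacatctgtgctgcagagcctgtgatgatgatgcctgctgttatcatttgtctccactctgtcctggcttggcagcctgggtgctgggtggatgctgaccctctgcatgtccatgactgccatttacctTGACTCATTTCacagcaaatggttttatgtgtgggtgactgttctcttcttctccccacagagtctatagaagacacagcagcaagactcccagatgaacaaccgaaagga

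Windows were found for 9 of the 10 genes, with 2 for Irf8. Both strands were searched for 10 motifs. The longer ones were the IRF and BATF composite (AICE), in a direct form and in a form with a spacer, the PU.1 and IRF composite (EICE) and the IRF repeat. The short ones were TGANTCA for AP-1, GAGGAAGT for PU.1 and, within it, the ETS core GGAAGT. They also included TTCCTC, whose reverse complement lies within GAGGAAGT too and is known as the PU.1 core. TGTGGT stood for RUNX factors and TATAAA for the TATA box. The AP-1 motif is part of both forms of the IRF and BATF composite. The direct form of the IRF and BATF composite was found in Cd207 and Zbtb46, on the strand opposite to the gene as TGACTCATTTC in both, and in 0.125% of the 32851 windows of all genes. Relative to the start, its leftmost base stood at -7 in Cd207 and at -61 in Zbtb46. Itgax held the AP-1 letters TGAGTCA at -56, a motif present in 7.81% of windows, and no match to the composite. Of the sharers, Cd207 differed by 1.20 and Zbtb46 by 0.11 between MHC-II classes. Cd209a held the PU.1 with IRF motif, as did 2.72% of windows. A match is a run of letters, and no binding was measured.

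Genes whose levels over the 12 arrays were most like those of Itgax were the glucose transporter Slc2a1 (Pearson r = 0.988), fibronectin Fn1 (0.975), the HSP90 co-chaperone Cdc37 (0.965), the membrane protease Adam8 (0.958) and Cd207 (0.949). For Cd207 they were Itgax (0.949), Pmepa1 (0.943), the transporter Slco3a1 (0.941), Slc2a1 (0.936) and Cdc37 (0.936). The 3 MHC-II-positive macrophage arrays stand apart from the rest and weigh on all of these values, which describe 12 arrays in 4 groups. Taken as deviations from the group means, Itgax had r = 0.804 with Slc2a1, 0.769 with Fn1, 0.513 with Cdc37, 0.780 with Adam8 and 0.380 with Cd207. On that scale Cd207 had 0.701 with Pmepa1, 0.725 with Slco3a1, 0.076 with Slc2a1 and 0.243 with Cdc37. All these genes were picked for the highest r over the same 12 arrays, so the values are descriptive only.

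**Figure D4:**
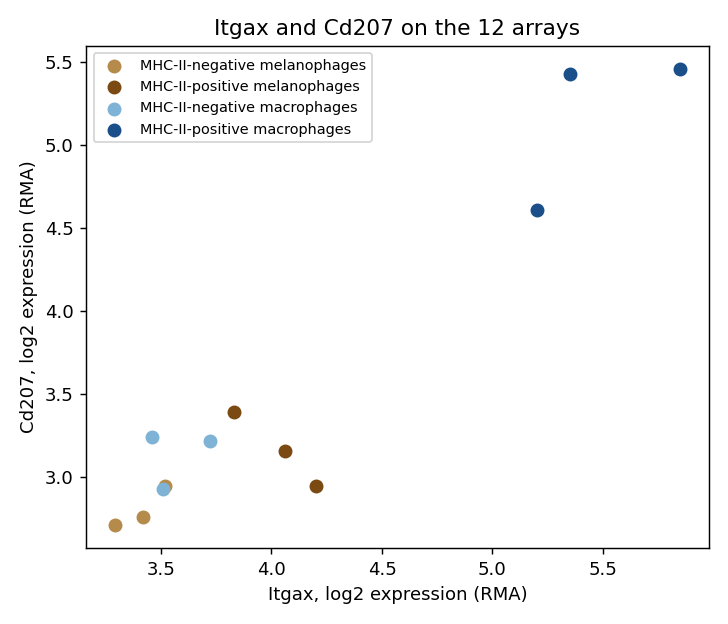
Log2 expression of Cd207 against that of Itgax on the 12 arrays, coloured by group. The 3 MHC-II-positive macrophage arrays lie apart at 5.20 to 5.85 for Itgax and 4.61 to 5.46 for Cd207, and MHC-II-positive melanophages are shifted along the Itgax axis at 3.83 to 4.20.

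Other dendritic cell genes were counted in 7 lists. Of 19 measured genes of mature and migratory dendritic cells, 5 rose with MHC-II averaged over cell kind, 0 fell and 14 did not pass, where 0.632% of all genes rose and 0.13% fell. The chemokines Ccl17 (log2 difference 5.26 ± 0.40) and Ccl22 (2.19 ± 0.14), which attract T cells through CCR4, led, with Ccr7, the receptor that guides dendritic cells to lymph nodes (1.97 ± 0.27), and the adaptor Samsn1 (1.09 ± 0.19). The fifth was the co-stimulatory receptor Cd40 (0.97 ± 0.14, limma adjusted p = 0.0100), named after its value was seen. The median of the list was 0.34, beside -0.024 for all genes.

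Of 15 measured cDC2 genes, 4 rose in the same comparison and 0 fell (0.632% and 0.13% of all genes), with a median of 0.22. They were the lectins Mgl2 (1.33 ± 0.26, limma adjusted p = 0.0466), Cd209e (1.23 ± 0.14, adjusted p = 0.00238) and Clec12a (1.19 ± 0.21, adjusted p = 0.0330) and the PD-1 ligand Pdcd1lg2 (1.07 ± 0.18, adjusted p = 0.0227). Cd209d of this list had group means of 10.29 to 10.61, and Mgl2 had a mean of 7.99 in MHC-II-negative macrophages. Genes of the list are thus not particular to cDC2. Pdcd1lg2 had group means of 3.44 and 3.79 in MHC-II-negative and MHC-II-positive melanophages and 3.37 and 5.16 in the macrophages. It was the cDC2 gene called in macrophages (1.78 ± 0.25, adjusted p = 0.0120), and Cd209e the one called in melanophages (1.47 ± 0.20, adjusted p = 0.0157). The interaction of Pdcd1lg2 did not pass (-1.44 ± 0.36, limma adjusted p = 1.0).

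Of 13 measured cDC1 genes, only the amidase Naaa rose (1.15 ± 0.14, limma adjusted p = 0.00308), and of 11 Langerhans cell genes only the tight junction gene Cldn1 (1.48 ± 0.19, adjusted p = 0.00455). Of all genes 0.632% rose. List medians were -0.02 and 0.15. Clec9a, a receptor for dead cells that defines cDC1, had group means of 2.24 to 2.31, and Epcam, an adhesion molecule of Langerhans cells, of 2.38 to 2.59, both below the array medians. Of 20 other transcription factors of dendritic cells Nfil3 rose (0.67 ± 0.12, adjusted p = 0.0330). With limma 0 of 8 genes of growth factor signalling and 0 of 9 plasmacytoid dendritic cell genes passed (3 and 2 with an unadjusted p under 0.05, as had 9.23% of all genes). Between cell kinds, averaged over MHC-II class, 0 genes of the 7 lists passed with limma, and 2 to 4 of each list, or 1 of the plasmacytoid genes, had an unadjusted p under 0.05, against 0.12% and 7.52% of all genes. Runx3, Cd1d1 and Tcf4 stand in 2 of these lists each.

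**Figure D5:**
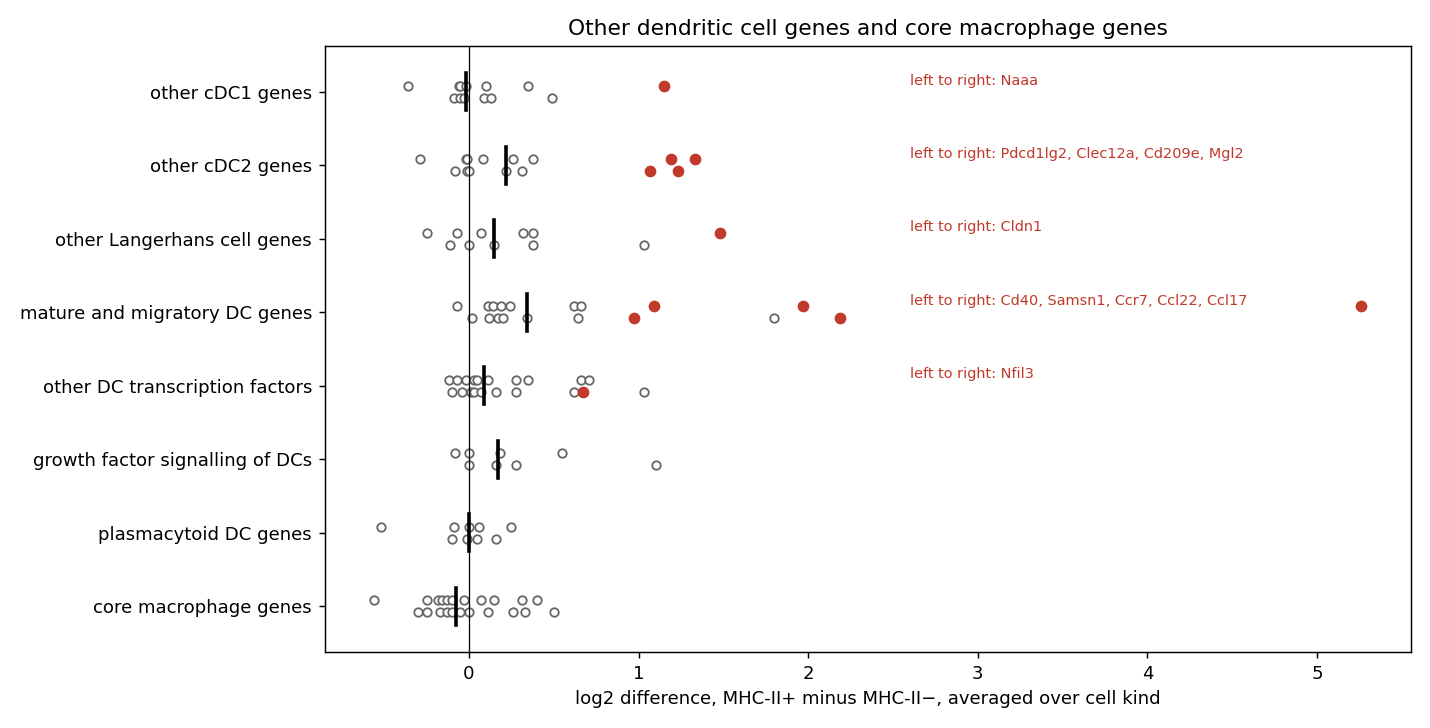
Log2 differences between cells with and without MHC-II, averaged over cell kind, for the measured genes of 7 lists of dendritic cell genes and for core macrophage genes; red points passed in limma, their names are given from left to right, and black bars are list medians. Called genes sit to the right of 0, with Ccl17 farthest at 5.26, while the 22 core macrophage genes have a median of -0.08 and no call.

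Genes of other cell types moved with some of these results. Of 10 measured monocyte genes, 3 rose with MHC-II averaged over cell kind (Ccr2, Fn1 and Ms4a4c), as did 0.632% of all genes. The other 7 did not pass, and the list median was 0.15, beside -0.024 for all genes. Mean log2 levels of the list were 4.67 to 5.27 on the MHC-II-positive macrophage arrays, 4.6 to 4.86 on the MHC-II-positive melanophage arrays and 3.88 to 4.24 on the MHC-II-negative arrays. The 11 Langerhans cell genes had mean levels of 4.19 to 4.70 in MHC-II-positive macrophages, 3.87 to 4.14 in MHC-II-negative macrophages, 4.03 to 4.12 in MHC-II-positive and 3.83 to 3.90 in MHC-II-negative melanophages. Of 10 genes of T cells and innate lymphoid cells, Il7r (1.94 ± 0.25) and Cd2 (1.37 ± 0.13) rose and 8 did not pass. The median of that list was 0.01, beside -0.024 for all genes, so it did not rise as a group. Its mean levels were 4.01 to 4.28 on MHC-II-positive and 3.73 to 3.93 on MHC-II-negative arrays. The part of these cell types in the levels of Itgax, Cd207 and Cd24a was not tested. With limma 0 genes of the lists for keratinocytes (13), fibroblasts (10), B cells (7), neutrophils (10), mast cells (8), melanocytes (10) and endothelium (10) passed in this comparison, with 2, 1, 0, 2, 3, 1 and 1 at an unadjusted p under 0.05. The shares of all genes were 0.762% and 9.23%.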

How the data were processed

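Total RNA of sorted cells was extracted, 3 to 20 ng of it was amplified and labelled with biotin, and it was hybridised to Affymetrix arrays, per the labels' protocols. The authors deposited log2 values. The submitters' processing notes name RMA and oligo, an R package, as their source, and its version, settings and genome build were not found in the labels. Among 35556 probe sets, the platform annotation gives 21789 a single symbol, 1621 several and 12146 none here. Each gene was read from its brightest probe set, by the mean of all 12 arrays, leaving 19938 genes with no filter on dim genes. RMA fits all arrays together and compresses differences of dim genes.

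limma 3.58.1 (R 4.3.3; lmFit, eBayes) fitted all 12 arrays with a mean per group (8 residual and 2.44 prior degrees of freedom). Tests were two-sided, with Benjamini-Hochberg adjustment over all genes of each of 7 comparisons and calls at an adjusted p under 0.05. On simulated data of 19938 genes the fit called 67% of log2 changes of 1 and 90% of changes of 2 for MHC-II in macrophages, with 6 false calls, and 62% and 88% for cell kind in the MHC-II-positive class, with 8. Changed genes were drawn from the brighter part of the table. In each simulated fit 100 genes were changed by each size, with normal noise independent between genes. The adjustment is more lenient when many genes change. In the data these comparisons called 68 genes and 3 genes, so the simulated shares need not hold for them.

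Named are all 10 genes, up to 4 called genes with the largest change of each further list (otherwise the one with the smallest adjusted p, of which those that add to a result are printed), and the 5 genes most like Itgax and Cd207 by Pearson correlation. Members and lists were chosen with earlier results of these data known, and the motifs after the values. Alternatives were a filter on dim genes, quantile normalization again, centring on array medians, every probe set, means of probe sets, array weights, a trended and robust prior, fits of the compared groups alone, each array left out, and, added after the data were seen, a block for the sets of title codes and a fit without both macrophage arrays that correlated least with their group mates.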

Additional observations from a re-analysis of the deposited data

How the results depend on the processing

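In all, 70 differences (10 genes in 7 comparisons) were recomputed under up to 22 alternatives each. The calls of Itgax and Cd207 between MHC-II classes, averaged over cell kind, held in all 21 of their alternatives. In macrophages 2 genes were called in every alternative but the fit of the 6 arrays alone, which called 1 (Itgax). Between cell kinds, averaged over MHC-II class, the number of called genes fell from 2 to between 0 and 2 when 1 array was left out. Within the MHC-II-positive class it was also 0 to 2 without 1 array, 0 with quantile normalization again (adjusted p = 0.0571 for Itgax and for Cd207) and 0 in the fit of the 6 arrays alone (adjusted p = 0.310 for each). For the interaction it was 0 to 1 without 1 array. Without both macrophage arrays that correlated least with their group mates, an alternative chosen after seeing the data, the 2 calls between cell kinds held (adjusted p = 0.0444 for Itgax and 0.0345 for Cd207). The causes were not tested, though a fit of 6 arrays has fewer samples for the spread. No called difference changed sign. Among differences that did not pass, 70 of 1331 recomputed values changed sign, all of differences of at most 0.36 on the log2 scale. A block for the 3 sets of title codes, also added after seeing the data, left 1 gene called between cell kinds averaged over MHC-II class and 1 in the MHC-II-positive class, Itgax in both (adjusted p = 0.0363 and 0.0338, against 0.0612 and 0.0609 for Cd207), and it changed no other number of called genes. Deviations from the group means over all genes were also correlated between arrays of different groups. Of 18 pairs within a set, 5 had r above 0.1 (median -0.026, against 0.063 for pairs from different sets). On this measure 2 of 12 arrays correlated best with their own set. An effect shared by a set on the 10 genes alone was not tested. Signal near background limits what can be read for Xcr1, Zbtb46, Flt3, for Cd207 outside MHC-II-positive macrophages and for Itgax and Cd24a in MHC-II-negative cells.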
